A study of Mus musculus with 12 samples.

Results

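The 10 genes Sox9, Sox5, Sox6, Ihh, Col2a1, Col10a1, Acan, Comp, Hapln1 and Matn3, which mark cartilage cells and their hypertrophy, were examined in RNA-seq of Ocy454 cells. They were taken by their Ensembl mouse gene IDs from the 37583 IDs counted in each library, and all 10 were among the 14904 IDs that entered the tests. Ocy454 is a murine osteocytic line from long bone that carries a temperature-sensitive T antigen. Osteocytes are the cells of bone that lie inside its matrix and sense load. There were 12 libraries, 3 in each of 4 groups: control cells ("original cells" in the labels) and DKO cells (HDAC4 and HDAC5 deleted), each with or without (static) 3 h of fluid flow shear stress, FFSS. Per the study's methods a single-cell subclone of the line served for all experiments, cells were kept at 37 °C for 14 days or longer before analysis, flow came from orbital rotation, and lines for gene deletion carried Cas9 from a lentivirus. Those methods also describe control cells given an empty guide RNA lentivirus, without tying them to these samples. The labels name no more than 1 line of each genotype, so genotype and differences between lines that arose for other reasons cannot be told apart, and since the labels do not say that replicates were separate cultures, p-values measure the spread between these samples, which may be technical. In bulk RNA, more cells expressing a gene and more RNA per cell cannot be told apart either.

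Cartilage of the growth plate matures in steps. Proliferating chondrocytes are driven by SOX9 with its partners SOX5 and SOX6, and lay down type II collagen, aggrecan, link protein and matrilins. Chondrocytes that stop dividing make Indian hedgehog (Ihh) and then, as hypertrophic cells, type X collagen (Col10a1). HDAC4 is known to restrain this last step in cartilage by holding back the transcription factors MEF2 and RUNX2, and HDAC5 is a close relative of HDAC4.

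The libraries held between 17.6 and 19.2 M reads in genes. The targeted genes were lower in DKO static cells without being lost from the RNA: Hdac4 (the longer of its 2 gene IDs) had 550, 458 and 484 counts in control and 220, 309 and 259 in DKO static libraries, and Hdac5 had 2473, 2706 and 2421 against 1503, 1461 and 1634 (log2 fold changes −0.85 and −0.65, edgeR adjusted p = 0.000102 and 7.94e-06). Under FFSS Hdac5 was not lower in DKO cells: it stood at 90.2, 71.1 and 82.4 CPM (reads per M of the TMM-adjusted library total) in control and 93.3, 92.4 and 92.9 CPM in DKO libraries, each DKO library above each control library (log2 fold change 0.19, 95% interval 0.02 to 0.36, edgeR adjusted p = 0.0512). Hdac4 (longer ID) was lower there, at means of 37.0 CPM in control and 13.3 CPM in DKO libraries. Its shorter ID differed less between control and DKO cells, at means of 23.1 and 17.6 CPM without flow and 24.2 and 17.05 CPM under FFSS. Of the osteocyte and osteoblast markers, Col1a1 had at least 108228 counts in every library and Dmp1 at least 318, whereas Fgf23 had 0 or 1 count in every library and Mepe between 0 and 4 in the control libraries. Of the markers of adipocytes, muscle, tendon, endothelium and leukocytes, 5 of 14 entered the tests. The control FFSS library 1 stood apart from the other two of its group: the chi-square statistic of the counts per degree of freedom was 64.9 and 59.1 against them, and between 2.04 and 6.60 in the other replicate pairs.

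Sequence just before the transcription start was examined for 3 short motifs in the RefSeq promoters of build GRCm38.p6 (250 bases before to 50 after each start). The table held 12 promoters of 7 of the 10 genes (6 of them of Sox6); Sox9, Col2a1 and Comp had no entry. The 3 sequences shown are each the 250 bases before the start, 5′ to 3′ on the gene's strand. They are those of Col10a1, the defining gene of hypertrophy, of Hapln1, the member called lower in DKO static cells, and of the Sox6 start whose promoter matched the MEF2 pattern searched. Capitals mark matches to the patterns given below.
Col10a1 (GRCm38.p6, chr10:34389731-34389980, + strand): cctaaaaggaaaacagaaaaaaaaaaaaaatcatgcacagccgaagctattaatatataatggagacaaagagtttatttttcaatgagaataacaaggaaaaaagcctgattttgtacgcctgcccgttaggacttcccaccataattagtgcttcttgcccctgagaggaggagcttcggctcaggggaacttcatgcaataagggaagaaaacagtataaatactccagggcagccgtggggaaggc
Hapln1 (GRCm38.p6, chr13:89540386-89540635, + strand): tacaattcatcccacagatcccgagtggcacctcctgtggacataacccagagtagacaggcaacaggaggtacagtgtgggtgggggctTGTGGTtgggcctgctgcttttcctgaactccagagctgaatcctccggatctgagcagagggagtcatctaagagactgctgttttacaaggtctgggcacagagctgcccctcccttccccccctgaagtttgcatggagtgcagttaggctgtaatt
Sox6 (GRCm38.p6, chr7:116031048-116031297, − strand): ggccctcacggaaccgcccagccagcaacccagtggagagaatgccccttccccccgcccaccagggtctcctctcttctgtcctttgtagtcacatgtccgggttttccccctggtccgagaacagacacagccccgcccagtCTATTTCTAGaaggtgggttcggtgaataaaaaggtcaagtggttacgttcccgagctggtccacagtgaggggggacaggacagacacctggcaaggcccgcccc

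The MEF2 motif was searched as CTA, any 4 bases, TAG, which reads the same on both strands. With the 4 inner bases left free, a match need not be a site that MEF2 binds. This pattern was found in 1 of the 12 promoters, at −106 of Sox6, and in 3.69% of all 32851 promoters in the table. The RUNX motif TGTGGT, on either strand, was found in 3 of the 12, at −160 of Hapln1 and in 2 promoters of Sox6, and in 16.8% of all promoters. The SOX motif ACAATG, on either strand, was found in 3 of the 12, in Sox5 and in 2 promoters of Sox6, and in 12.6% of all promoters. None of the 3 motifs was found in the promoters of Col10a1, Ihh, Acan and Matn3, which says only that these letters do not occur in these windows.

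The first comparison asked how DKO cells differed from control cells without flow. Col2a1 and Col10a1, which encode the collagens of cartilage, were 494-fold and 481-fold higher in DKO cells and had at most 173 counts in a control static library. Sox9 was 2.51-fold and Comp 2.46-fold higher, and Hapln1 was 3.10-fold lower. A gene was called at an adjusted p under 0.05 (edgeR's quasi-likelihood test, Benjamini-Hochberg adjustment over all genes tested) with more than a 2-fold change. By this rule 4 of the 10 genes were called higher and 1 lower, whereas 7.98% of all genes tested were called higher, 7.3% lower and 15.3% in either direction. Over the 10 genes the median log2 fold change was 0.79, against 0.01 over all genes tested.

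**Figure D1:**
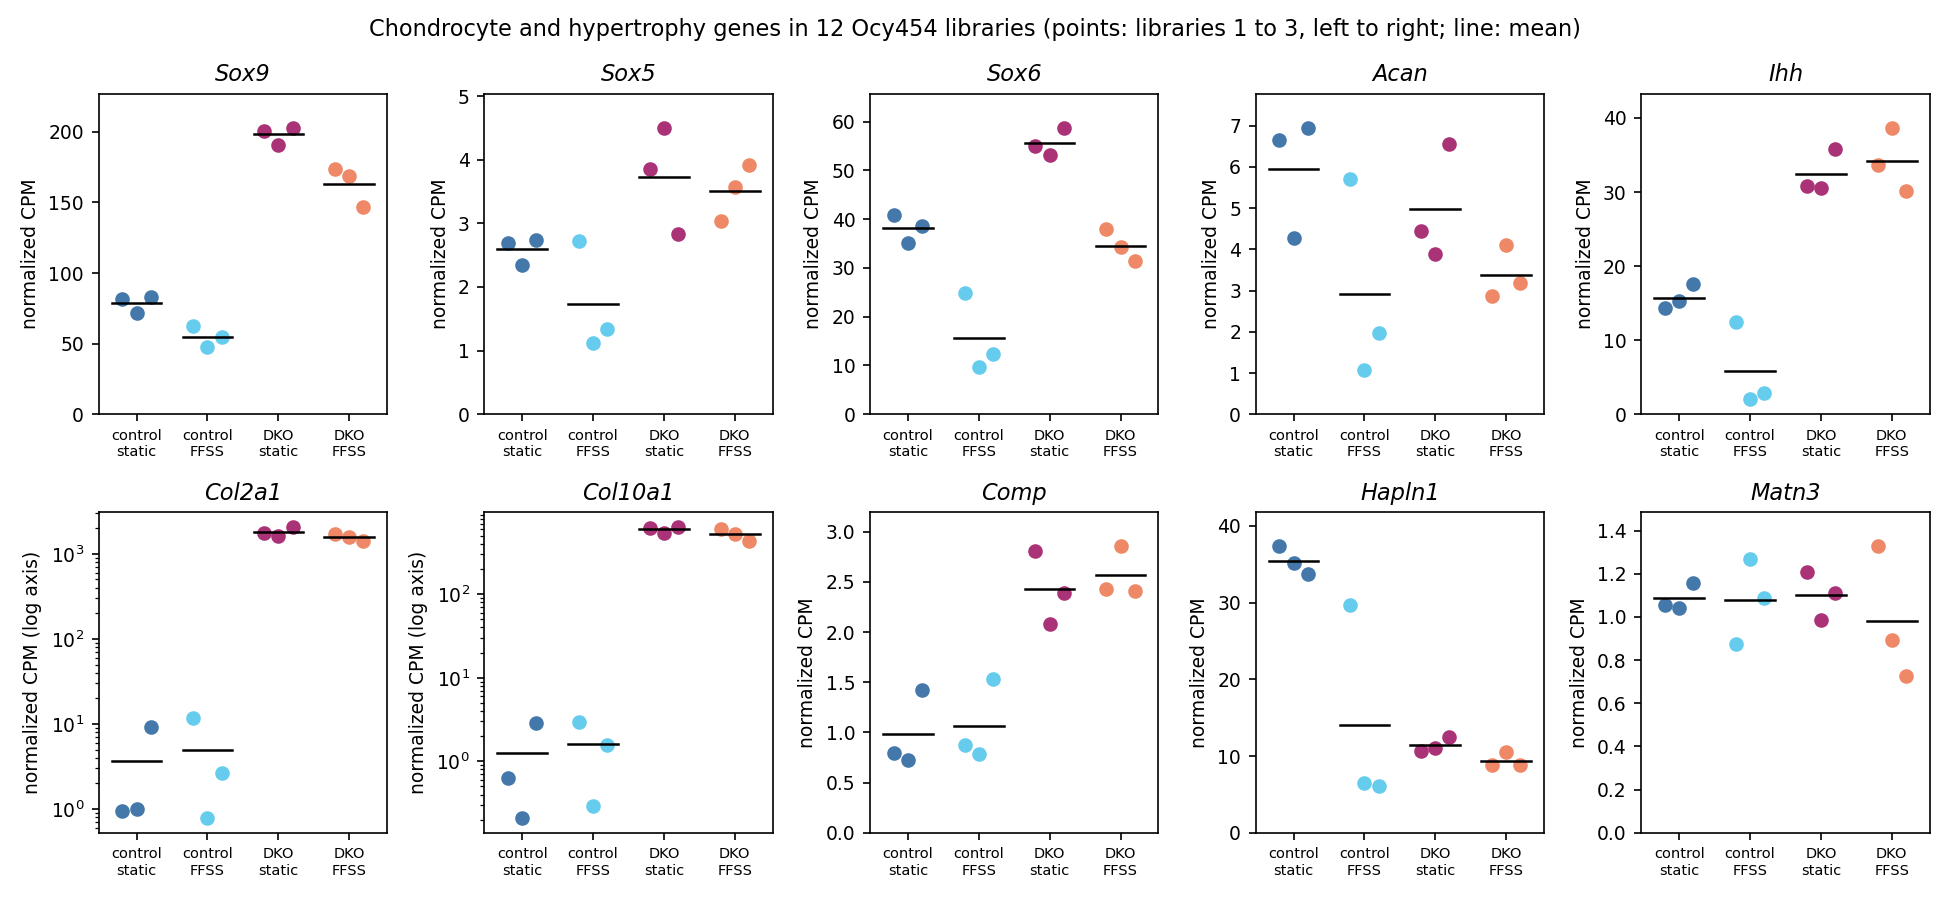
Level of each of the 10 genes in each library, in CPM (reads per M of the TMM-adjusted library total; log axis for Col2a1 and Col10a1, linear from 0 for the others). Points are libraries 1 to 3 of each group from left to right and lines are group means; Col2a1 and Col10a1 are separated by genotype, and in Sox6, Acan, Ihh and Hapln1 the control FFSS library 1 lies above libraries 2 and 3.

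Of the transcription factors, Sox9 (ENSMUSG00000000567, mm9 chr11:112643538-112649074, + strand), the factor that founds the chondrocyte lineage and switches on its collagen genes, had 1547, 1381 and 1579 counts in control static libraries and 3652, 3480 and 3651 in DKO static libraries. All DKO libraries lay above all control libraries. The means were 79.0 ± 6.11 CPM and 198 ± 6.35 CPM (SD, n = 3 each). On the log2 scale the difference was 1.33 ± 0.0916 (SE), with an edgeR adjusted p of 3.36e-08.

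Sox6 (ENSMUSG00000051910, mm9 chr7:122614858-123182258, − strand), a partner of Sox9 on cartilage enhancers, had 772, 673 and 735 counts in control and 1000, 969 and 1057 in DKO static libraries. The groups did not overlap, but the log2 fold change of 0.54 (95% interval −0.02 to 1.11, edgeR adjusted p = 0.0973) did not pass the test. Sox5 (ENSMUSG00000041540, mm9 chr6:143776945-144730497, − strand), the other partner, was low, with 51, 45 and 52 counts in control and 70, 82 and 51 in DKO libraries. In CPM the groups just failed to overlap, the lowest DKO library being library 3. Its log2 fold change of 0.52 (95% interval −0.04 to 1.09) did not pass either, with an edgeR adjusted p of 0.109. With control FFSS library 1 outside the fit that gives the shared spread, an alternative chosen after seeing the data, edgeR's adjusted p was 2.93e-07 for Sox6 and 0.0119 for Sox5, at the same sizes and so below the 2-fold limit.

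Ihh (ENSMUSG00000006538, mm9 chr1:74991891-74998246, − strand), the hedgehog ligand that prehypertrophic chondrocytes secrete, had 271, 293 and 335 counts in control and 560, 556 and 645 in DKO static libraries, a gap between the groups wider than the range within either. Its log2 fold change was 1.04 (95% interval 0.02 to 2.06), with an edgeR adjusted p of 0.0792, so it was not called. Fitted on the 6 static libraries alone the change was 1.04 with an edgeR adjusted p of 1.05e-11, and with control FFSS library 1 outside the fit that p was 7.32e-10. With the share of reads outside genes in the model (7.07% to 7.14% in DKO static and 5.10% to 5.21% in control static libraries), the change itself was 2.20. Over all alternatives it lay between 0.96 and 2.20, and 5 of 17 called it.

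The fibrillar collagen of cartilage, Col2a1 (ENSMUSG00000022483, mm9 chr15:97806033-97835155, − strand), had 18, 19 and 173 counts in control static libraries against 31798, 29518 and 37616 in DKO static libraries. Col10a1 (ENSMUSG00000039462, mm9 chr10:34109787-34116891, + strand), the short-chain collagen made by hypertrophic chondrocytes, had 12, 4 and 55 counts against 11214, 9892 and 11633. In both genes every DKO library lay far above every control library, and control library 3 was several times higher than libraries 1 and 2. The log2 fold change was 8.95 ± 0.970 (SE) with an edgeR adjusted p of 4.98e-05 for Col2a1 and 8.91 (SE 0.593, edgeR adjusted p = 1.83e-06) for Col10a1, the highest and the second highest of the 14904 genes tested. Genes with 0 counts in 2 or more libraries were left out of this ranking. Among them Matn1, a matrilin with 0 counts in the control libraries, was at 9.24 in the fit without that filter. Of the exonic bases of Col10a1, 0.575% are shared with Nt5dc1 on the other strand, whose mean count was 242 against 5036 for Col10a1.

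The level in control cells, and with it the size of these folds, depended on single libraries. As a percent of the DKO static mean, Col2a1 stood at 0.0523%, 0.0544% and 0.501% in control static libraries 1 to 3 and at 0.638%, 0.0429% and 0.144% in control FFSS libraries 1 to 3. Col10a1 stood at 0.105%, 0.0346% and 0.481%, and at 0.495%, 0.0487% and 0.263%. The 8 genes that were more than 64-fold higher in DKO static cells and above 50 CPM there, a set chosen from these values and including Col2a1, Col10a1 and Sost, had medians of 0.118%, 0.204% and 0.680% in the control static libraries and 0.765%, 0.121% and 0.289% in the control FFSS libraries. Control static library 3 and control FFSS library 1 were thus the highest for both collagens and for the median of the 8 genes. With both libraries left out, an alternative also chosen after seeing the data, the static log2 fold change was 10.86 for Col2a1 and 10.46 for Col10a1, against 8.95 and 8.91 with them. Both genes were still called. The part of these libraries' other differences in the control levels was not tested.

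**Figure D2:**
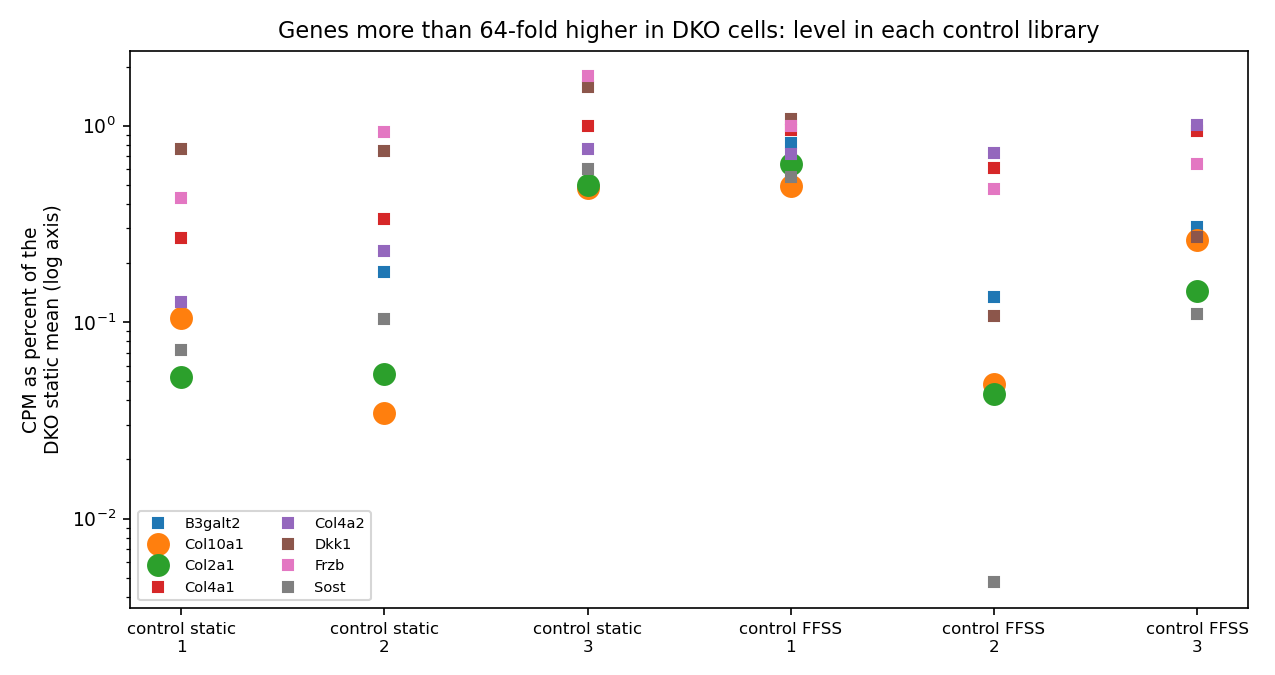
CPM of 8 genes in each control library as a percent of their mean in DKO static cells, on a log axis; circles are Col2a1 and Col10a1, squares the other 6 genes, picked as more than 64-fold higher in DKO static cells and above 50 CPM there. Col2a1 and Col10a1 lie between 0.481% and 0.638% in control static library 3 and control FFSS library 1 and between 0.0346% and 0.263% in the other 4 libraries.

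Among the other matrix genes, Comp (ENSMUSG00000031849, mm9 chr8:72897447-72905964, + strand), a pentameric glycoprotein that binds collagen fibrils, was low, with 15, 14 and 27 counts in control and 51, 38 and 43 in DKO static libraries. The groups did not overlap, and the log2 fold change was 1.30 ± 0.288 (SE) with an edgeR adjusted p of 0.00155. Hapln1 (ENSMUSG00000021613, mm9 chr13:89680241-89751437, + strand), the link protein that locks aggrecan to hyaluronan, went the other way, with 706, 674 and 641 counts in control and 193, 202 and 225 in DKO static libraries. All DKO libraries lay below all control libraries. Its log2 fold change was −1.63 ± 0.521 (SE) with an edgeR adjusted p of 0.025.

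The call of Hapln1 was lost in 5 of the 6 fits that leave out 1 static library, with adjusted p between 0.0513 and 0.0725, and its fold fell below 2 with the share of reads outside genes in the model. With control FFSS library 1 outside the fit its log2 fold change was −1.63 with an adjusted p of 2.56e-16. Acan (ENSMUSG00000030607, mm9 chr7:86198369-86259985, + strand), the large proteoglycan of cartilage, had 126, 82 and 132 counts in control and 81, 71 and 118 in DKO libraries, overlapping groups with a log2 fold change of −0.26 (95% interval −1.25 to 0.73, edgeR adjusted p = 0.653). Matn3 (ENSMUSG00000020583, mm9 chr12:8954735-8978834, + strand), a matrilin of growth plate matrix, stayed between 18 and 22 counts in all 6 static libraries (log2 fold change 0.02, 95% interval −0.53 to 0.58, edgeR adjusted p = 0.95).

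Per length, the order of the genes was not the same in both lines. As RPKM, which is CPM divided by the summed exon length in kilobases, control static cells had Sox9 highest at 19.1 RPKM, then Hapln1 at 7.0 and Ihh at 6.38 RPKM, whose ranges overlapped, then Sox6 at 4.31 RPKM. Acan, Col2a1, Comp, Col10a1 and Matn3 followed between 0.810 and 0.360 RPKM, each with a range that overlapped the next, and Sox5 was lowest at 0.180 RPKM. In DKO static cells Col2a1 came first at 302 ± 40.2 RPKM, then Col10a1 at 192 ± 17.0 RPKM and Sox9 at 47.9 ± 1.53 RPKM (SD, n = 3 each), with no overlap between neighbours. Ihh at 13.1, Sox6 at 6.28 and Hapln1 at 2.26 RPKM followed, and of the neighbours further down only Comp (1.00 RPKM) and Acan (0.676 RPKM) overlapped.

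The second comparison set DKO against control cells after 3 h of FFSS. The same 4 genes were called higher as without flow, and Ihh, Sox6 and Sox5 with them, while Hapln1 was no longer called. Thus 7 of the 10 genes were called higher and 0 lower, and Hapln1, Acan and Matn3 did not pass edgeR's test at an unadjusted p of 0.05 either, which 60.7% of all genes did. Of all genes tested 8.25% were called higher, 8.96% lower and 17.2% in either direction. Over the 10 genes the median log2 fold change was 1.2, against −0.05 over all genes tested. With library totals in place of TMM, 34.6% of the calls over all genes were higher, against 48.0% with TMM, and the log2 fold changes of Sox5 (0.84) and Sox6 (0.96) fell below the 2-fold limit.

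**Figure D3:**
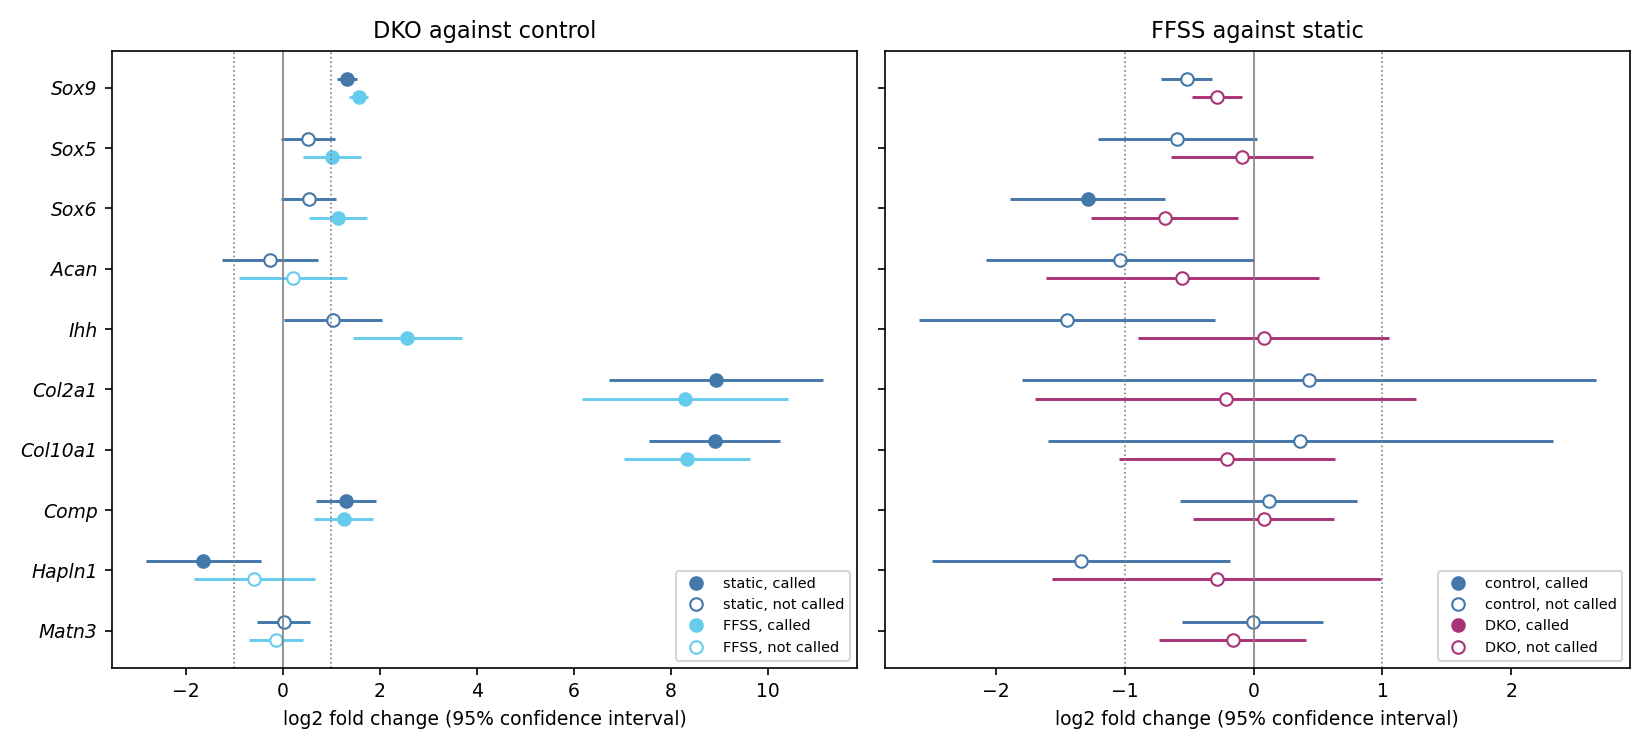
Log2 fold change of each gene with its 95% confidence interval, DKO against control on the left (static and FFSS) and FFSS against static on the right (control and DKO); filled points were called, dotted lines mark 2-fold. Col2a1 and Col10a1 lie above 8 on the log2 scale in both genotype comparisons, and Sox6 in control cells is the one filled point of the flow comparisons.

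Under FFSS Sox9 had 1210, 982 and 1111 counts in control and 3143, 2835 and 2620 in DKO libraries, again without overlap (log2 fold change 1.57, SE 0.0930, edgeR adjusted p = 8.15e-09). Col2a1 had 226, 16 and 53 counts against 30541, 26726 and 25443 (log2 fold change 8.30, edgeR adjusted p = 6.14e-05). Col10a1 had 58, 6 and 32 against 11022, 8834 and 7664 (log2 fold change 8.34, edgeR adjusted p = 2.21e-06). Col10a1 ranked 2 and Col2a1 ranked 3 from the highest of all genes tested, and in both the counts varied more among control than among DKO libraries relative to their means. Matn1, which the filter on 0 counts kept out of this ranking too, was at 8.84 in the fit without it. Without control FFSS library 1 the log2 fold change was 9.85 for Col2a1 and 9.11 for Col10a1.

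Ihh had 242, 43 and 58 counts in control and 609, 650 and 539 in DKO FFSS libraries, and its log2 fold change was 2.57 ± 0.495 (SE) with an edgeR adjusted p of 0.00173. Without control FFSS library 1 it was 3.78 (edgeR adjusted p = 4.92e-17). Sox6 stood at 24.9, 9.72 and 12.4 CPM against 37.9, 34.2 and 31.3 CPM (log2 fold change 1.14, SE 0.270, edgeR adjusted p = 0.00463). In both genes the lowest DKO library lay above the highest control library, which was library 1. Sox5 had 53, 23 and 27 counts against 55, 60 and 70, and was just past the fold limit at a log2 fold change of 1.03 (edgeR adjusted p = 0.00605). Its groups did not overlap in CPM. Without control FFSS library 2 the log2 fold change was 0.89 for Sox6 and 0.79 for Sox5, and without control FFSS library 3 or DKO FFSS library 3 that of Sox5 was 0.87 or 0.94, all under the limit.

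Comp had 17, 16 and 31 counts in control and 44, 48 and 43 in DKO FFSS libraries (log2 fold change 1.26, edgeR adjusted p = 0.00156), close to its static values. Hapln1 stood at 29.7, 6.45 and 6.04 CPM against 8.79, 10.5 and 8.78 CPM, so that the DKO libraries lay between control library 1 and control libraries 2 and 3. Its log2 fold change was −0.58 (95% interval −1.83 to 0.66, edgeR adjusted p = 0.40), and it was 0.58 (edgeR adjusted p = 0.000145) without control library 1, the opposite direction. Acan had 111, 22 and 40 counts against 52, 69 and 57 (log2 fold change 0.22, 95% interval −0.89 to 1.33, edgeR adjusted p = 0.733) and was called higher without control library 1, at 1.14. Matn3 had 17, 26 and 22 counts against 24, 15 and 13 (log2 fold change −0.13, 95% interval −0.69 to 0.43, edgeR adjusted p = 0.694).

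The third comparison asked what 3 h of FFSS did in control cells. Sox6 was 2.44-fold lower and was the only one of the 10 genes called, against 5.93% of all genes tested (3.96% higher and 1.97% lower). This comparison shares its libraries with those between genotypes. Sox9 was 1.44-fold lower and passed on the adjusted p alone, which 35.8% of all genes did. Over the 10 genes the median log2 fold change was −0.56, against 0.01 over all genes. The log2 fold change of Sox6 was −1.29 (SE 0.269, edgeR adjusted p = 0.00555) and that of Sox9 −0.52 (SE 0.0924, edgeR adjusted p = 0.00108). All 3 FFSS libraries lay below all 3 static libraries in both genes. Fitted on the 6 control libraries alone, Sox6 had an edgeR adjusted p of 0.0514 and was not called.

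The 3 control FFSS libraries were not alike. Relative to the mean log2 CPM of the static libraries, Sox6 stood at −0.61, −1.96 and −1.61 in libraries 1, 2 and 3. Ihh stood at −0.33, −2.84 and −2.41, and Hapln1 at −0.25, −2.44 and −2.53. Library 1 was close to static cells in Ihh and Hapln1, and libraries 2 and 3 were well below them. Acan stood at −0.03, −2.33 and −1.51, and Sox9, with the least spread, at −0.34, −0.72 and −0.52.

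Over the 3 libraries, Ihh had a log2 fold change of −1.45 (95% interval −2.60 to −0.30, edgeR adjusted p = 0.0523), Hapln1 of −1.34 (95% interval −2.49 to −0.18, edgeR adjusted p = 0.0695) and Acan of −1.04 (95% interval −2.08 to 0.00, edgeR adjusted p = 0.108), none of them called although the groups of Ihh and Hapln1 did not overlap. Without control FFSS library 1 there were 5 genes called, all lower: Ihh at −2.66, Hapln1 at −2.50, Acan at −1.96, Sox6 and Sox5 (−1.07). In that fit 11.3% of all genes were called. In the 2 libraries that moved most, 9.19% and 10.04% of uniquely aligned reads fell outside genes, against 5.87% in library 1 and 5.10% to 5.21% in static control libraries; with this share in the model none of the 10 genes was called, and its part in the result was not tested in another way. Col2a1 (log2 fold change 0.43), Col10a1 (0.36), Comp (0.12) and Matn3 (−0.01) had edgeR adjusted p-values between 0.768 and 0.985.

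**Figure D4:**
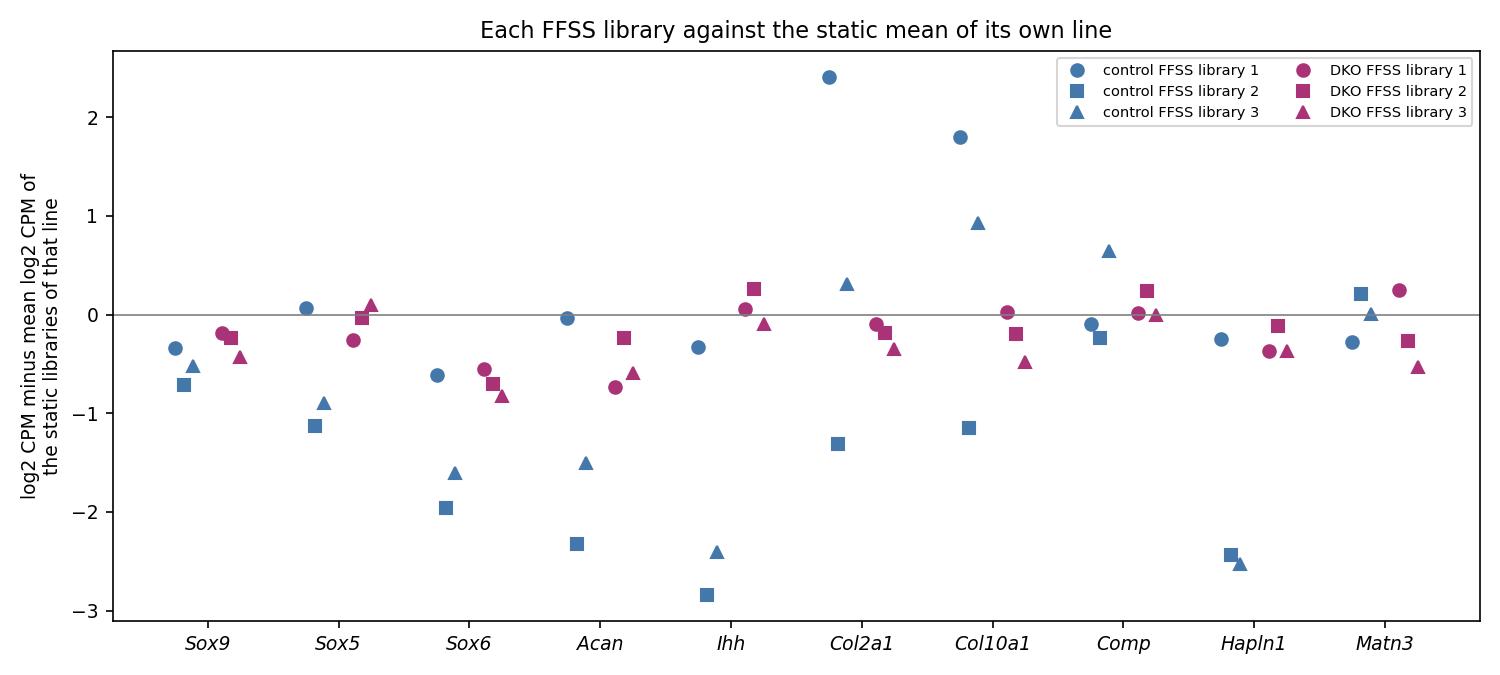
Log2 CPM of each FFSS library minus the mean log2 CPM of the static libraries of its own line, for the 10 genes; blue is control, purple is DKO, and circle, square and triangle are libraries 1, 2 and 3. Control libraries 2 and 3 lie more than 2 below static for Ihh and Hapln1 while library 1 lies at −0.33 and −0.25, and DKO libraries lie between −0.83 and 0.26 in all 10 genes.

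In DKO cells none of the 10 genes was called for FFSS, where 0.0872% of all genes were called and 0.872% passed on the adjusted p alone. DESeq2, which gave no adjusted p for Sox5, Col2a1, Comp and Matn3 here, and limma-voom called 0. At an unadjusted p under 0.05 edgeR gave 2 of the 10 genes, a share near the 13.5% of all genes at that level. The 2 genes at that level were Sox9, with 3652, 3480 and 3651 static and 3143, 2835 and 2620 FFSS counts (log2 fold change −0.28, 95% interval −0.47 to −0.09, edgeR adjusted p = 0.165), and Sox6, with 55.0, 53.2 and 58.7 static and 37.9, 34.2 and 31.3 FFSS CPM (−0.69, 95% interval −1.26 to −0.12, edgeR adjusted p = 0.275). In both genes all FFSS libraries were below all static ones. Fitted on the 6 DKO libraries alone, edgeR's adjusted p was 0.000936 for Sox9 and 5.72e-08 for Sox6, at changes of −0.28 and −0.68, less than 2-fold. Ihh, with 609, 650 and 539 FFSS counts against 560, 556 and 645, differed by 0.08 (95% interval −0.90 to 1.05), and Col10a1 by −0.21 (95% interval −1.05 to 0.63).

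Whether the response to FFSS differed between the lines was tested as an interaction, the log2 change in DKO minus that in control cells. None of the 10 genes was called or passed the adjusted p, where 0.651% of all genes were called and 3.97% passed on the adjusted p alone. At an unadjusted p under 0.05 edgeR gave 1 of the 10, Ihh, and 23.8% of all genes, while DESeq2 called 0 and limma-voom 1. For Col2a1 and Matn3 DESeq2 gave no adjusted p here. The difference was 1.53 for Ihh (95% interval 0.02 to 3.04, edgeR adjusted p = 0.206), 1.05 for Hapln1 (95% interval −0.67 to 2.77, edgeR adjusted p = 0.43) and 0.60 for Sox6 (95% interval −0.23 to 1.42, edgeR adjusted p = 0.351). Without control FFSS library 1 there were 4 genes called, Ihh at 2.74, Hapln1 at 2.21, Acan at 1.41 and Sox6 at 1.10, while the count over all genes went from 97 to 1138, or 7.6% of those tested.

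Other genes of the cartilage program were then counted in DKO against control static cells, where of all genes tested 7.98% were called higher, 7.3% lower and 15.3% in either direction, with a median log2 fold change of 0.01. Of 18 further genes of cartilage matrix and its making, 12 entered the tests and 6 were called, all higher, with a median log2 fold change of 1.02 over the 12. Col9a1, a chain of the collagen that coats type II fibrils, had 17 to 21 counts in control and 281 to 333 in DKO libraries (log2 fold change 4.14). Xylt1, which starts the sugar chains of proteoglycans, had 28 to 36 against 478 to 573 (4.11). Matn1, a matrilin of cartilage, did not enter the tests: it had 0 counts in all 6 control libraries and 66 to 85 in DKO static libraries, at least 25.3-fold higher relative to a floor of 3 counts per library, which covers counting error only.

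Chad, a leucine-rich protein of cartilage matrix, was called with only 3 counts in control and 31 in DKO static libraries in all (ratio 10.9, exact binomial 95% counting interval 3.38 to 55.5). Of the 31 counts 18 came from library 3, without which the ratio was 6.80 (1.87 to 37.2). Under FFSS it had 23 counts in each genotype (ratio 1.14, 0.611 to 2.13). Prg4, the lubricin of joint surfaces, was called at a log2 fold change of 1.11. Col11a2, which joins type II collagen in its fibrils, had 7805 to 10345 against 17047 to 20419 counts without being called (log2 fold change 1.02, edgeR adjusted p = 0.143). Lect1, Epyc, Ucma and Cilp, further cartilage genes, had at most 3 counts in any library, so not all genes of the program were detected.

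Of 8 effectors of hypertrophy and mineral, 2 were called, both higher, and the median log2 fold change of the 8 was 0.55. With 15.3% of all genes called, 2 of 8 is not far from the share over all genes. Mmp13, the collagenase of the hypertrophic zone, had 925 to 1027 counts in control and 3833 to 5247 in DKO static libraries (log2 fold change 2.30), and Spp1, osteopontin, 14458 to 16008 against 68522 to 76640 (2.31). Both are also made by bone cells. The other 6 were not called. Among them the bone sialoprotein gene Ibsp had 47375 to 56586 counts in control and 140653 to 147271 in DKO libraries (log2 fold change 1.51, edgeR adjusted p = 0.0706). Panx3, a channel protein gene, had 14306 to 16224 against 8923 to 9576 counts (−0.69, edgeR adjusted p = 0.248), and Phospho1, a phosphatase gene of mineralization, 1011 to 1141 against 615 to 649 (−0.68, edgeR adjusted p = 0.178). In these 3 genes the groups did not overlap, whereas those of Alpl did (0.16, edgeR adjusted p = 0.72).

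Of 14 regulators, 12 entered the tests, 2 were called higher and 2 lower (7.98% and 7.3% of all genes), and the median log2 fold change was 0.56. Mef2d, a member of the MEF2 family that class IIa histone deacetylases bind, had 1989 to 2094 counts in control and 4937 to 5183 in DKO static libraries (log2 fold change 1.37, edgeR adjusted p = 4.71e-10). Foxa3 was called from few counts, 8 in control and 30 in DKO libraries in all (ratio 3.94, exact binomial 95% counting interval 1.76 to 9.94). Zfp521, a zinc finger repressor of RUNX2, was called lower at −2.30 and Runx1 at −1.14. Runx2 itself (log2 fold change 0.27, edgeR adjusted p = 0.118) and Mef2c (0.57, edgeR adjusted p = 0.226) were not called.

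Of 15 genes of growth plate signaling, 13 entered the tests, 1 was called higher, about the share of all genes (7.98%), and 4 lower (7.3% of all genes) in DKO static cells, and the median log2 fold change was −0.34. Nog, a BMP antagonist, was higher at a log2 fold change of 4.17. Fgf18, an FGF ligand of the perichondrium, was lower at −4.27, with 68 to 71 counts in control and 2 to 5 in DKO libraries. Gli2 (−3.08) and Gli3 (−1.06), transcription factors of the pathway that Ihh feeds, were also lower. Its direct targets Ptch1 (−0.46, edgeR adjusted p = 0.146) and Gli1 (−0.34, edgeR adjusted p = 0.25) were not called, nor was Pth1r, the receptor for the PTHrP signal that opposes hypertrophy (0.26, edgeR adjusted p = 0.619).

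Under FFSS, where 8.25% of all genes were called higher and 8.96% lower in DKO cells, the same lists gave these counts. Of the 12 tested cartilage matrix genes 6 were called higher and 1 lower, Col9a3, a further chain of type IX collagen, with 12 to 29 counts in control and 6 to 10 in DKO libraries (log2 fold change −1.14, edgeR adjusted p = 0.0158). Of the 8 effectors 3 were called, all higher, Ibsp among them at 2.61. Of the 12 regulators 5 were called higher and 1 lower, and Mef2c was at 1.76. Of the 13 growth plate signals 3 were called higher and 4 lower, and Pth1r was at 1.58.

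Osteocyte and osteoblast genes moved in the same comparison: of 10, 9 entered the tests, 8 were called higher (7.98% of all genes) and 1, Pdpn, lower (−2.47; 7.3% of all genes). Sost, the Wnt inhibitor sclerostin, had 28 to 236 counts in control and 36753 to 38134 in DKO static libraries (log2 fold change 8.59), Phex was at 4.87, Dmp1 at 4.31 and Col1a1 at 1.56, while Mepe had 0 to 4 against 289 to 337 counts. Of the 14 markers of other cell types, 5 entered the tests, where the same shares of all genes hold: 1 was called higher, the tendon factor Mkx (1.05), and 3 lower, Cd68 (−3.46), Scx (−1.89) and Fabp4 (−1.74). The defining markers Myog (0 counts throughout), Myod1, Ckm, Tnmd and Adipoq had at most 3 counts in any library. Pparg, the adipocyte transcription factor, did not enter the tests, with 0 to 2 counts in control libraries, 6 to 9 in DKO static and 8 to 16 in DKO FFSS libraries. The part of these lists in the levels of the 10 genes was not tested.

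**Figure D5:**
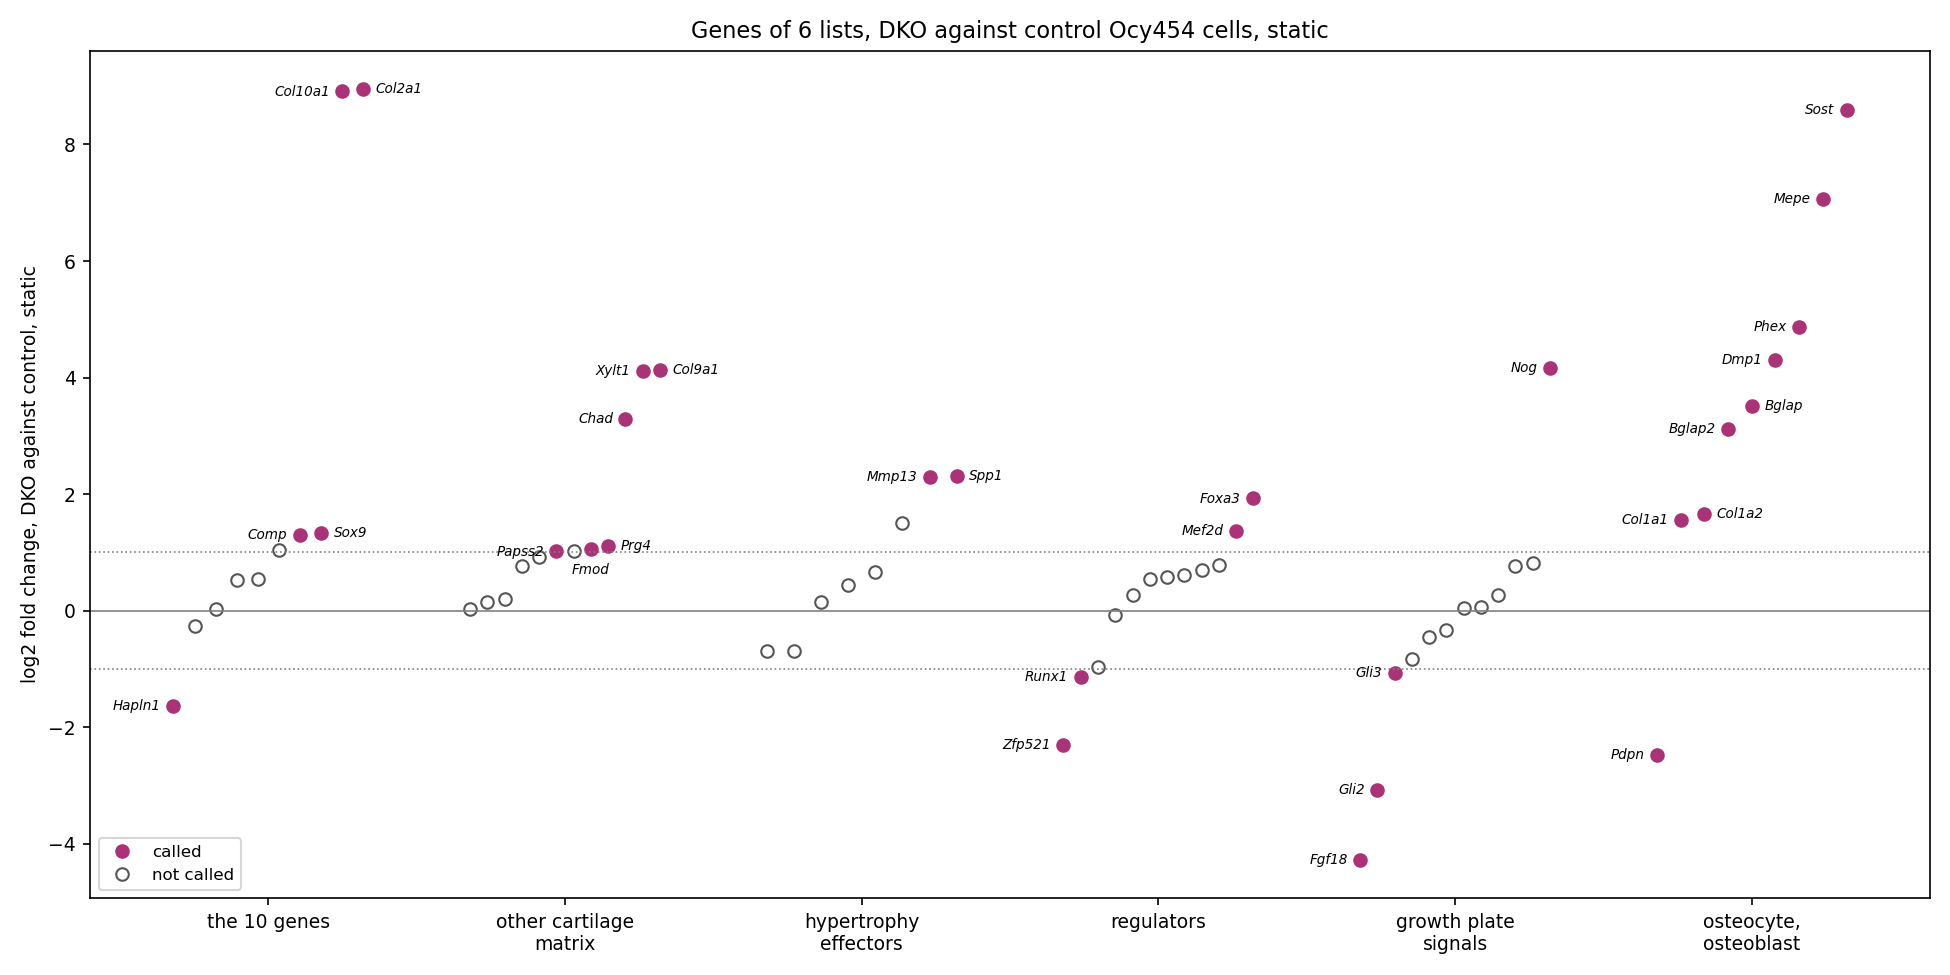
Log2 fold change of DKO against control static cells for tested genes of 6 lists, sorted within each list; filled points were called and are named, dotted lines mark 2-fold. Col2a1, Col10a1 and Sost lie above 8, and among growth plate signals Nog is called higher while Fgf18, Gli2 and Gli3 are called lower.

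The genes whose profiles over the 12 libraries were nearest to those of Sox9 and Col10a1 were found by the root mean square difference of centred log2 CPM, as a description. Nearest to Sox9 were Ypel2 (0.113), Tnc (0.116) and Cant1 (0.122). Tnc, which encodes the matrix protein tenascin C, had means of 852 and 651 CPM in control cells (static and FFSS) and 2060 and 1891 CPM in DKO cells. Nearest to Col10a1 were Col2a1 (0.418), B3galt2 (0.696) and Sost (0.923). All 12 points share the split by line.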

How the data were processed

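Total RNA of 12 Ocy454 samples was sequenced. By their methods and processing notes, the authors used BGISEQ single-end sequencing, STAR alignment (mm9, Ensembl genes) and HTSeq counting that ignored strand. The deposited values are raw counts per Ensembl gene ID, 1 file per library. Symbols, exon lengths and overlaps came from the mm9 (NCBIM37) GENCODE vM1 annotation, and groups from the sample titles.

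Counts were tested with edgeR 4.0.16 (robust quasi-likelihood, TMM, R 4.3.3) on all 12 libraries as 4 groups. Genes with 0 counts in 2 or more libraries were removed, which left 14904 of 37583 IDs. Calls needed a fold above 2 and a p, adjusted by Benjamini-Hochberg, under 0.05. Log2 CPM used a prior count of 2, and RPKM the TMM-scaled totals and summed exon length.

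The 10 genes and the other lists were chosen with earlier results of these data known. Named from the other lists were up to 4 genes with the largest change among those called in DKO against control static cells, plus Sost, Dmp1, Col1a1, Runx2, Mef2c, Ptch1, Gli1 and Pth1r. Genes named beyond this rule (Matn1, Col9a3, Col11a2, Ibsp, Panx3, Phospho1, Alpl, Pdpn, Pparg and those given as near 0) were chosen after their values were seen. The values of 1 gene of the growth plate list are not reported here.

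Alternatives were RLE factors, library totals alone, edgeR's filterByExpr or no filter, only the libraries compared, DESeq2 1.42.0, limma-voom (limma 3.58.1), the replicate number as a block, the share of reads outside genes as a covariate, other thresholds, and leaving out each library.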

Additional observations from a re-analysis of the deposited data

How the results depend on the processing

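Of 841 alternative values for the 50 fold changes of the 10 genes, 744 kept their direction and their side of the threshold, 14 lost the call, 33 gained it and 50 changed sign. In what follows the share of all genes called in the same fit stands in parentheses. With a 4-fold limit 2 of the 10 genes were called in DKO against control static (4.76%), 3 under FFSS (5.56%) and 0 for FFSS in control cells (1.07%). For FFSS in control cells 2 were called with no fold limit (35.8%), 2 with filterByExpr (5.79%), 0 with only the libraries compared (2.71%), 4 by DESeq2 (5.26%), 4 by limma-voom (5.73%), 0 with the share of reads outside genes in the model (1.33%) and 5 with control static library 3 and control FFSS library 1 both left out (10.84%). For the interaction limma-voom called 1 (1.13%) and the fit without both libraries 4 (7.0%). Leaving out each library in turn gave 1 to 5 calls for FFSS in control cells and 0 to 4 for the interaction, the higher values without control FFSS library 1 (11.3% and 7.6%). DESeq2 gave no adjusted p for Col2a1 in any comparison, for Sox5, Comp and Matn3 for FFSS in DKO cells, and for Matn3 in the interaction.

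With the share of reads outside genes in the model, which differed between the lines as well, log2 changes of the opposite sign were 0.66 for Acan and −0.12 for Matn3 (DKO against control static), 0.20 for Sox5, 0.22 for Acan, 0.0363 for Ihh, −0.35 for Comp and 0.14 for Hapln1 (FFSS, control), 0.21 for Sox5, 0.50 for Col2a1, 0.29 for Col10a1, −0.0704 for Comp and 0.34 for Hapln1 (FFSS, DKO), and −0.27 for Acan, 0.28 for Comp and 0.0120 for Matn3 (interaction). Matn3 also turned to −0.0595 (static) and 0.12 (FFSS, control) with library totals alone, to 0.00888 with filterByExpr and to 0.17 without both libraries, and Hapln1 under FFSS to 0.58 without both. The cause was not tested. Leaving out single libraries moved values of changed sign over these ranges: Matn3 −0.0483 to 0.0975 (static), −0.41 to 0.0477 (genotype, FFSS), −0.14 to 0.12 (FFSS, control), −0.45 to 0.0152 (FFSS, DKO) and −0.44 to 0.0234 (interaction), Acan −0.18 to 1.14 and Hapln1 −0.95 to 0.58 (genotype, FFSS), Col2a1 −1.11 to 2.34, Col10a1 −0.41 to 1.91 and Comp −0.25 to 0.48 (FFSS, control), Sox5 −0.25 to 0.0690, Ihh −0.0204 to 0.16 and Comp −0.0201 to 0.20 (FFSS, DKO), and Col2a1 −2.56 to 0.90, Col10a1 −2.12 to 0.20 and Comp −0.40 to 0.32 (interaction).

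Replicate numbers did not pair the samples (mean correlation of deviations 0.00226, lowest −0.0603, highest 0.0631), and with the number as a block 5, 7, 1, 0 and 0 of the 10 genes were called in the 5 comparisons, as without it. Library totals alone moved the median of all genes to −0.25 (genotype, FFSS), 0.13 (FFSS, control) and −0.13 (interaction), and the share of calls that were higher from 66.7% to 77.3% and from 57.7% to 36.8% in the last 2. Counts of 3, the floor used, equal 0.147 to 0.178 CPM, so Comp, Matn3 and, in control cells, Col10a1 rest on few reads.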
